A study of Drosophila melanogaster with 4 samples.

Results

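The euchromatic part of 2L, the left arm of chromosome 2 of Drosophila melanogaster, carried 3335 regions of histone H1 enrichment in a combined table of 18812 regions, a share of 17.7%. Members are all regions on 2L whose last position lies below 21000000 on Release 5 of the genome, in an arm of 23011544 bp. The same limit left 722 of 3779 regions in replicate 1 (19.1%) and 809 of 4665 in replicate 2 (17.3%). The samples were wild-type Oregon-R larvae of the third instar, the last larval stage, with no treatment or allele named in the labels. There were 2 H1 ChIP samples and 2 input samples, and the input libraries were not analysed here. The larvae were used without a named tissue, so every region is an average over many cell types. Nothing in the labels ties the replicates to separate cultures, so their spread may be only technical. The word euchromatic rests on the position limit alone, since no heterochromatin mark was measured.

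H1 is the linker histone. It binds the nucleosome where DNA enters and leaves the particle, and it helps to fold the fibre of nucleosomes into a more compact form. In Drosophila larvae it is found along the chromosomes in general, and loss of H1 is known to disturb the structure of polytene chromosomes and the silencing of heterochromatin. ChIP-seq recovers DNA bound by a protein with an antibody and counts it by sequencing. A region here is a stretch that the authors listed as significantly enriched. Any H1 outside the regions went unlisted, by a threshold and other criteria that are not known. On 2L no region was shorter than 1301 bp in a replicate or 1001 bp in the combined table, so shorter stretches may be unlisted too. A gap is the stretch between neighbouring regions of a list.

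H1 regions were spread over the whole stretch, in short pieces with modest scores. Replicate 1 covered 1.21 Mb of the 21 Mb, which is 5.75%, and replicate 2 covered 1.44 Mb, or 6.85%, a mean of 6.30% ± 0.777 (SD, n = 2). The combined table covered 7.09 Mb, or 33.8%. On average there was 1 region every 29.1 kb in replicate 1, every 26.0 kb in replicate 2 and every 6.30 kb in the combined table. The read depth behind the lists is unknown, so no difference in number between them can be set against depth.

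Replicate 2 had somewhat longer regions than replicate 1, and the combined table had the long domains. Median lengths of 1541 and 1597 bp in replicates 1 and 2 stood beside 1659 bp in the combined table. Regions of 2000 bp or more made up 14.5% of replicate 1, 22.6% of replicate 2 and 34.5% of the combined table. A length of 5 kb was reached by 2 regions of replicate 2 and none of replicate 1, and by 162 combined regions, 14 of which reached 10 kb. Of the covered length, the longest 10% of regions held 15.7% and 17.6% in replicates 1 and 2, and 26.1% among combined regions. The combined table thus had a longer tail of long regions, and its shortest regions, at 1001 bp, were shorter than the 1301 bp minimum of both replicates.

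The longest region of replicate 1 ran from 20542727 to 20547619 (4893 bp) and had no base in a replicate 2 region. The longest of replicate 2 ran from 3281038 to 3287403 (6366 bp) and had no base in a replicate 1 region. In replicate 1 the next were 4289 bp from 987582, 3976 bp from 9379588, 3871 bp from 2286298 and 3791 bp from 3232165. Replicate 2 covered 36.9%, 76.0%, 0% and 46.5% of these 4 regions. In replicate 2 the next were 5805 bp from 1773260, 4882 bp from 9363136, 4502 bp from 20535667 and 4478 bp from 4235291. Replicate 1 covered 25.3%, 30.2%, 0% and 40.3% of them. Some of the longest regions of each replicate were therefore not listed in the other. Even so, the longest 25% of regions overlapped the other list more often than all regions did. The shares were 34.8% against 29.6% in replicate 1, and 37.1% against 26.2% in replicate 2.

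The score was read as a log2 ratio, from its values. Once 2 to the power of the score was divided by the highest such value of its list, 100% of regions in each replicate and 99.7% of the combined table gave a ratio of whole numbers (relative tolerance 1e-12, denominators of at most 20000), against 1 region of each list after the scores had been shifted at random. On 2L the median score was 0.53 in replicate 1 and 0.57 in replicate 2, equal to ratios of 1.44 and 1.49, and 0.38 or a ratio of 1.30 in the combined table. The middle 50% of regions lay between ratios of 1.40 and 1.49 in replicate 1, between 1.43 and 1.54 in replicate 2 and between 1.27 and 1.33 in the combined table. Longer regions tended to have higher scores, with a Spearman rank correlation of 0.24 over 722 regions of replicate 1, 0.37 over 809 of replicate 2 and 0.17 over 3335 of the combined table. Score and length come from the same library in each list, and regions are not independent replicates.

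The highest score of replicate 1, 0.75, belonged to the region from 20109906 to 20111329, of which replicate 2 covered 65.4%. The next in replicate 1 ran from 16950280 to 16952797 with a score of 0.75, and replicate 2 covered 59.6% of it. The highest score of replicate 2, 0.91, belonged to the region from 16036253 to 16038622, and none of the 5 highest-scoring regions of replicate 2 had a base in a replicate 1 region. In replicate 1, 3 of the 5 highest were partly covered in replicate 2. Of all regions, 29.6% in replicate 1 and 26.2% in replicate 2 overlapped the other list. In the 25% with the highest scores these shares were 31.5% and 25.7%. Counts among 5 regions are too small to set the replicates apart.

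In the combined table the 5 highest scores lay at places that were in neither replicate list. They were 1.80 from 2118884 to 2119886, 1.16 from 5175688 to 5177656, 1.11 from 686764 to 687782, 1.09 from 20895604 to 20896752 and 0.95 from 12559646 to 12560716. Their lengths were 1003, 1969, 1019, 1149 and 1071 bp, so 4 of the 5 were shorter than any region of a replicate. Among all combined regions, 64.6% met neither replicate. The share was 93.1% of those under 1301 bp and 72.4% of those from 1301 to under 2000 bp. Lying in neither list was thus common at these lengths. The highest of the 5 scores is equal to a ratio of 3.48, well above the arm's median of 1.30. What depth stood behind these ratios is unknown.

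Regions were not evenly spaced. Replicate 1 had a median gap of 12340 bp, replicate 2 of 8313 bp and the combined table of 1448 bp. The mean gap was 2.22, 2.85 and 2.88 times the median, since long gaps stood beside many short ones. The coefficient of variation of the gaps was 1.47 and 1.89 in replicates 1 and 2, and 2.15 for combined regions. Gaps of more than 50 kb were 15.5% of all gaps in replicate 1 (112 gaps) and 13.2% in replicate 2 (107 gaps), yet they held 58.4% and 62.0% of the uncovered length. Of the combined gaps, 24 exceeded 50 kb and held 13.1% of the uncovered length.

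**Figure D1:**
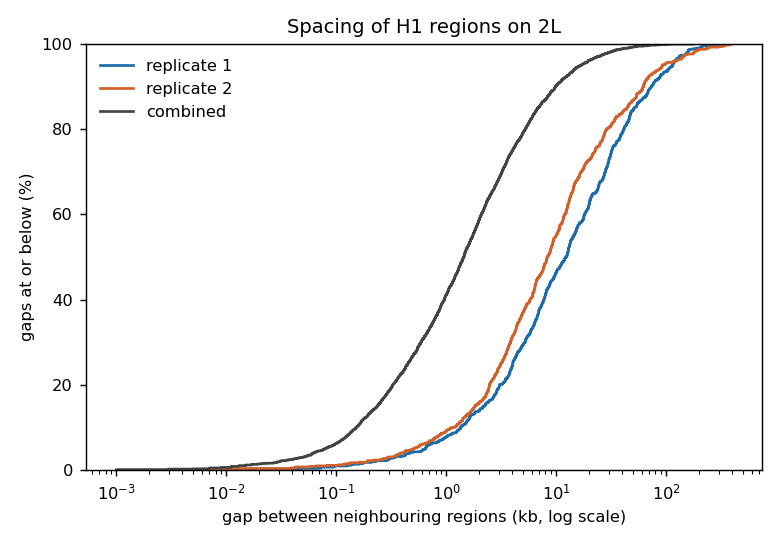
Cumulative share of gaps (y axis, percent) by the distance from the end of a region to the start of the next (x axis, kb, log scale) on 2L below 21 Mb, with a line for each list. The replicate lines run close together with medians of 12340 and 8313 bp, and the combined line lies to their left with a median of 1448 bp.

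Most combined regions came in chains. Gaps under 1 kb made up 7.77% of gaps in replicate 1, 9.16% in replicate 2 and 41.0% among combined regions. When regions less than 1 kb apart were joined, the combined table gave 1967 blocks, of which 691 held more than 1 region and 151 were 10 kb or longer. Blocks of more than 1 region held 14.8% of the regions of replicate 1, 17.2% of those of replicate 2 and 61.7% of combined regions. Replicates 1 and 2 and the combined table held 34.4, 38.5 and 159 regions per Mb. Regions of a denser list lie closer together by placement alone, and no share for independent placement was computed. The 151 long combined blocks spanned 2.56 Mb. Replicate 1 gave no block of 10 kb and replicate 2 gave 1.

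The longest combined block ran from 20516202 to 20569188, or 53.0 kb, and was made of 12 regions. Replicate 1 covered 27.2% of it and replicate 2 covered 33.8%. The next ran from 4727566 to 4778610 (51.0 kb, 12 regions), with 12.7% and 24.5% covered in replicates 1 and 2, and from 925246 to 975524 (50.3 kb, 11 regions), with 27.1% and 34.8%. The fourth and the fifth ran from 5626182 to 5672270 (46.1 kb) and from 17501276 to 17542992 (41.7 kb). In these 5 blocks replicate 1 covered 2.21 to 4.73 times its share of the whole stretch and replicate 2 covered 3.58 to 5.09 times; the blocks were built from the same libraries.

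Coverage by windows of 1 Mb divided the arm into denser and sparser parts. From 1 to 6 Mb, replicate 1 covered 7.35%, replicate 2 covered 8.26% and combined regions 38.7%. The last of these windows, from 5000001 to 6000000, was below the average of the whole stretch in each list, with 32.4% covered by combined regions. From 7 to 9 Mb the values were 2.99%, 2.92% and 20.2%. These limits were chosen after the values were seen. The sparsest single window, from 8000001 to 9000000, held 14 regions of replicate 1, 13 of replicate 2 and 98 of the combined table, with 2.31%, 2.26% and 16.9% covered. It was the lowest of the 21 windows in each list.

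The densest window differed between the replicates. In replicate 1 it was the window from 4000001 to 5000000, with 9.70% covered by 55 regions, where replicate 2 covered 8.31%. In replicate 2 it was the window from 15000001 to 16000000, with 12.4% covered by 69 regions, where replicate 1 covered 7.23%. The combined table had its highest value, 44.3%, in that same window.

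**Figure D2:**
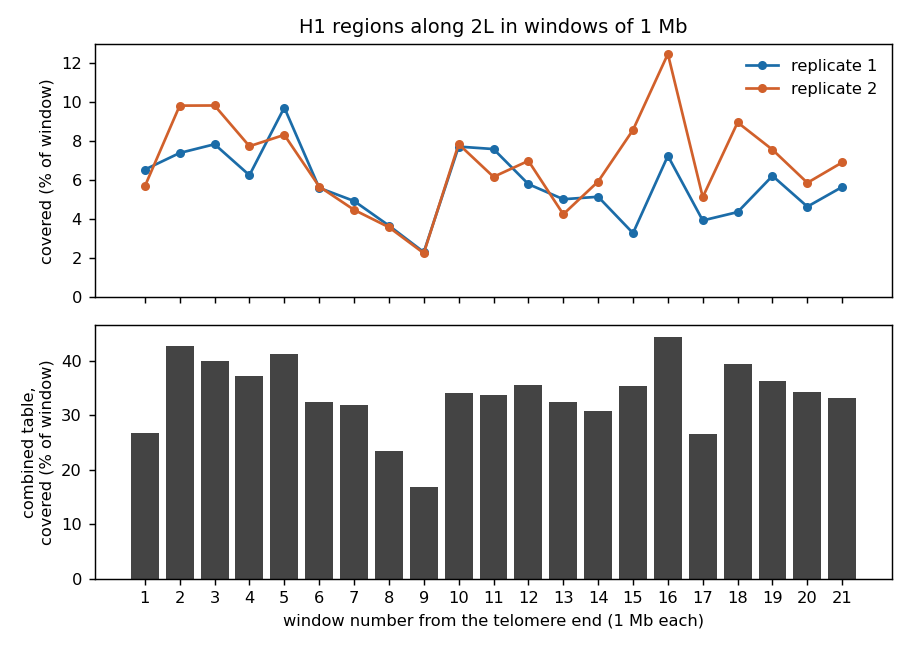
Share of each 1 Mb window covered by H1 regions (y axes, percent) against window number from the telomere end of 2L (x axis), with the replicates as lines above and the combined table as bars below. Both replicates and the combined table reach their lowest value in window 9 (2.31%, 2.26% and 16.9%), and the replicates part most in window 15 (3.28% and 8.56%).

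Total coverage per 1 Mb window was close between the replicates over part of the arm and apart over another. In the 5 windows from 5000001 to 10000000, the coverage of replicate 1 over that of replicate 2 lay between 0.984 and 1.10. In the window from 14000001 to 15000000 this ratio was 0.384, with 3.28% covered by 21 regions of replicate 1 and 8.56% by 49 regions of replicate 2. The ratio was 0.488 from 17000001 to 18000000 and 0.581 from 15000001 to 16000000. Replicate 1 covered more in 7 of the 21 windows and replicate 2 in 14. Spearman's rank correlation between the replicates over the 21 windows was 0.58, and each replicate's coverage had a rank correlation of 0.59 (replicate 1) and 0.91 (replicate 2) with the combined table. Neighbouring windows are not independent. Close totals did not mean the same places. In the 5 windows from 5000001 to 10000000, 2.14% to 12.9% of the length in either replicate was covered in both.

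Neither end of the stretch was richer in all lists. Spearman's rank correlation between coverage and window number, over 21 windows of 1 Mb, was -0.42 in replicate 1, -0.01 in replicate 2 and -0.02 for combined regions. Over 210 windows of 100 kb it was -0.10, 0.06 and 0.03. The number of regions varied more along the arm than their length did: over the 1 Mb windows the number of combined regions ran from 98 to 208, their median length from 1421 to 1927 bp and their median score from 0.36 to 0.41.

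In windows of 100 kb, coverage of replicate 1 ran from 0 to 22.5% with a median of 4.81%, that of replicate 2 from 0 to 30.0% with a median of 4.70%, and that of the combined table from 0 to 82.6% with a median of 31.3%. The coverage of a window followed its number of regions more closely than their length. Over 210 windows, Spearman's rank correlation of coverage with the number of regions was 0.98 and 0.99 in replicates 1 and 2, and 0.91 for combined regions. With the median length of the window's regions it was 0.34 over 187 windows, 0.39 over 176 and 0.67 over 209, leaving out windows with no region. Coverage is made of number and length, so these values only divide it.

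The densest window by the mean of the replicates was that from 900001 to 1000000, with 22.5% covered by 12 regions in replicate 1, 27.5% by 15 regions in replicate 2 and 76.2% by 20 regions in the combined table. It was followed by 20500001 to 20600000, with 16.4% and 30.0% in replicates 1 and 2 and 77.6% by combined regions. The window from 3200001 to 3300000 had 16.9%, 25.1% and 72.8%. Of the 5, the window from 2000001 to 2100000 had the closest replicates, with 21.2% and 20.7%, and the combined table had 67.8%. The fifth, from 9300001 to 9400000, had 15.3%, 22.7% and 61.8%. Of these 5 windows, 2 hold the longest and the third longest combined block, and 3 end at or below 3300000.

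Windows that were dense in 1 replicate mostly lay above the median of the other. The 21 densest windows of replicate 1, each covered to 12.9% or more there, had a median of 18.4% in replicate 2, with a range of 4.94% to 30.0%, against the median of 4.70% over all 210 windows. All 21 lay above that median. The 21 densest of replicate 2, each covered to 17.1% or more there, had a median of 13.7% in replicate 1, with a range of 4.79% to 22.5%, against 4.81% over all windows, and 20 of 21 lay above it. Between the 2 sets of 21 windows, 12 were shared, a share of 57.1% (95% Wilson interval 36.5 to 75.5%, counting error only). Each set is 10% of the windows, so sets picked independently would share 10% on average. In windows of 200 kb the share was 20.0% of 10 windows. Across the 210 windows the rank correlation between the replicates was 0.68.

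**Figure D3:**
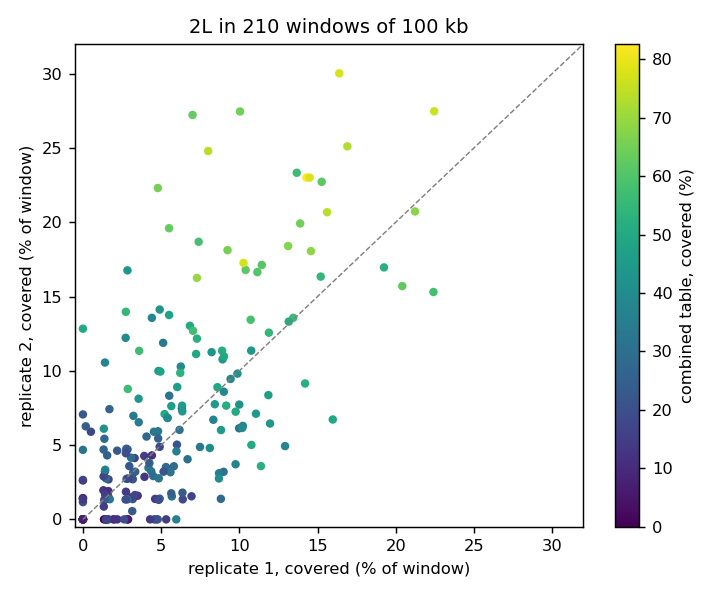
Coverage of 210 windows of 100 kb on 2L in replicate 1 (x axis, percent) and replicate 2 (y axis, percent), coloured by coverage in the combined table, with a dashed line where the replicates are equal. Combined coverage reaches 82.6% and varies among windows that are dense in both replicates, and the windows above 25% in replicate 2 lie above the line.

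Neither replicate had a region in 12 of the 210 windows, while 9 were empty in replicate 1 alone and 21 in replicate 2 alone. In each of the 12 windows the combined table still covered at least 1.27%. It covered most in the window from 3700001 to 3800000, where 18 combined regions with a median length of 1312 bp had no counterpart in the replicates. A single window, from 10200001 to 10300000, held no combined region, and replicate 1 covered 1.35% of it with 1 region.

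Of stretches free of combined regions, the longest went from 10196515 to 10377891, or 181 kb, and held 2 regions of replicate 1 in whole or in part and none of replicate 2. Next came 7939839 to 8052063 (112 kb), 151681 to 253343 (102 kb), 12447473 to 12548509 (101 kb) and 16243599 to 16337389 (93.8 kb). Neither replicate had a region in the third and the fifth of these stretches. In the other 3 the replicates covered at most 1.49%.

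The longest stretch of replicate 1 without a region ran from 7866958 to 8247091 (380 kb), and replicate 2 covered 1.09% of it with 3 regions. In replicate 2 the longest ran from 6884019 to 7278918 (395 kb), and replicate 1 covered 3.64% of it with 11 regions. The stretches emptiest in both replicates together were from 14332406 to 14589703 (257 kb), from 10213156 to 10463988 (251 kb), from 7939869 to 8172505 (233 kb), from 43929 to 253459 (210 kb) and from 6939303 to 7128292 (189 kb). The combined table covered 12.0%, 2.37%, 2.63%, 4.78% and 14.7% of these 5. Thus the second, the third and the fourth were nearly empty in all 3 lists, and the other two were not.

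Long gaps of a replicate were sparse, but not empty, in the other. The 112 gaps of replicate 1 over 50 kb spanned 11.5 Mb, and replicate 2 covered 3.18% of them, against 6.85% of the whole stretch, and 29 of the 112 had no replicate 2 region at all. The 107 such gaps of replicate 2 spanned 11.9 Mb, and replicate 1 covered 3.13% of them, against 5.75%, with none of its regions in 17 of the 107. Stretches over 100 kb without a region of either replicate numbered 25 and spanned 3.76 Mb in all.

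Region by region, the replicates shared fewer than 1 in 3 of their regions. Of the 722 regions of replicate 1, 214 overlapped a replicate 2 region by at least 1 bp, or 29.6% (95% Wilson interval 26.4 to 33.1%). Of the 809 regions of replicate 2, 212 overlapped replicate 1, or 26.2% (23.3 to 29.3%). Requiring 50% of both regions left 127 in each, or 17.6% and 15.7%. By length, 240 kb were covered in both, which is 9.96% of the 2.41 Mb covered in either, and 3.09 times the 3.23% that independent placement at these coverages would give. That value takes every position as equally open to a region, and no test was made of it.

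Overlapping regions often shared most of the shorter one. The 223 overlapping pairs shared a median of 1238 bp, or 79.8% of the shorter region, and their midpoints lay a median of 601 bp apart. The shared length ran from 9 to 3023 bp. Of the 214 overlapping regions of replicate 1, 127 shared at least 50% of both regions. In 48 pairs a region lay wholly within its partner. The replicate 2 region was the longer in 136 of 223 pairs. Within pairs, the rank correlation between the replicates was 0.12 for length and 0.23 for score, both low.

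Regions without a partner were often near a region of the other replicate. The 508 unpartnered regions of replicate 1 lay a median of 5084 bp from the nearest replicate 2 region, with 49.4% closer than 5 kb and 7.68% farther than 50 kb. The 597 unpartnered regions of replicate 2 lay a median of 5874 bp away, with 46.1% closer than 5 kb and 4.02% farther than 50 kb. Taken with the overlapping ones, 64.4% of the regions of replicate 1 and 60.2% of those of replicate 2 overlapped the other list or lay within 5 kb of it. Some regions lie this near by placement alone. No share for independent placement was computed at these distances, so these shares alone do not measure agreement. The most isolated region of replicate 1 was 312 kb from any replicate 2 region, and that of replicate 2 was 98.6 kb from any replicate 1 region.

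Longer regions had a partner more often, most clearly in replicate 2. With the regions of replicate 2 in 4 equal classes by length, the share with a partner was 16.3% in the shortest 25%, then 21.8%, 29.7% and 37.1% in the longest 25% (1952 to 6366 bp), and the Wilson intervals of the shortest (11.8 to 21.9%) and longest (30.8 to 44.0%) did not overlap. In replicate 1 the shares were 23.2%, 27.8%, 32.8% and 34.8%, with overlapping intervals. Longer regions also meet others more often by placement alone, and no test of the trend was made. By score, over 4 equal classes that run low to high, the shares were 27.1%, 27.2%, 32.8% and 31.5% in replicate 1 and 23.6%, 25.7%, 29.7% and 25.7% in replicate 2, with overlapping intervals throughout.

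Agreement also varied along the arm. The share covered in both, of all the length in either list, had a median of 9.91% over the 1 Mb windows. It was highest, 16.2%, in the first window, from 1 to 1000000, and lowest, 2.14%, in the sparse window from 8000001 to 9000000. The window from 17000001 to 18000000 reached only 3.51%, although replicate 2 covered 8.94% of it, and replicate 1 4.36%. Over the 21 windows the rank correlation of this share with mean coverage was 0.35. The share rises with coverage by placement alone, and no value for independent placement was computed for single windows.

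Combined regions fell into 4 classes by their overlap with the replicates. Of the 3335, 232 met both (6.96%, 95% Wilson interval 6.14 to 7.87%), 425 met replicate 1 alone (12.7%), 524 met replicate 2 alone (15.7%) and 2154 met neither (64.6%, 62.9 to 66.2%). The median lengths were 4242, 2227, 2247 and 1370 bp, and the median scores 0.44, 0.38, 0.39 and 0.37. Regions in both replicates were thus the longest class with the highest median score, and held 16.2% of the combined length. The combined table is built on the same libraries, so this is no independent evidence for the regions.

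Longer combined regions overlapped regions of the replicates more often. Longer regions also meet others more often by placement alone, and no share for independent placement was computed. Of the 988 combined regions under 1301 bp, the shortest length of a replicate region, none met both replicates and 93.1% met neither. Of the 594 from 2000 to under 3000 bp, 8.25% met both and 44.9% neither. Of the 162 of 5 kb or more, 92 met both (56.8%) and 9 met neither (5.56%). The longest combined region in neither replicate ran from 1615420 to 1622722, 7303 bp with a score of 0.34. In the other direction, 710 of 722 regions of replicate 1 and 801 of 809 of replicate 2 overlapped a combined region, and every base covered in both replicates lay inside the combined table.

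**Figure D4:**
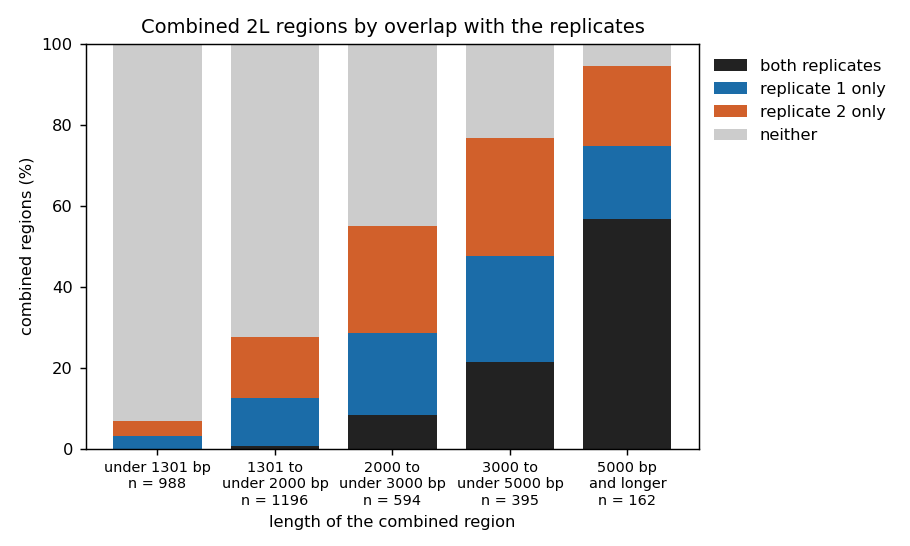
Combined 2L regions in 5 length classes (x axis, with the number of regions), each bar divided by the share (y axis, percent) that overlaps both replicates, replicate 1 only, replicate 2 only or neither. The share in neither falls with length, 93.1% in the shortest class and 5.56% in the longest, and the share in both is 0% in the shortest and 56.8% in the longest. Longer regions also meet others more often by placement alone.

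Of the combined regions in both replicates, the highest score, 0.73, was at 20107090 to 20111584. It held 1 region of each replicate, with scores of 0.75 and 0.81, and 20.7% of its length was covered in both. The region from 16948308 to 16953868 followed with 0.60 and held 2 regions of each replicate, with 49.4% of its length covered in both. Next came 2298250 to 2301842 and 16014270 to 16019594, each with 0.55, and 3240562 to 3246176 with 0.54. In the region at 2298250 the single region of replicate 1 lay wholly within that of replicate 2, so that each base of replicate 1, 54.4% of the region, was covered in both.

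The 5 longest combined regions each overlapped both replicates, and 4 of them held several shorter pieces of each replicate and the fifth held 1 of each. The longest, 17299 bp from 4735050 to 4752348, held 2 regions of replicate 1 and 3 of replicate 2, which covered 18.9% and 27.0% of it, with 7.97% covered in both. The second, 14789 bp from 2049430 to 2064218, held 2 and 4 regions, covering 30.2% and 45.1%. The third, 14513 bp from 10102848 to 10117360, was the best covered in both, at 20.7%, with 4 regions of replicate 1 (47.4%) and 3 of replicate 2 (55.5%). The fourth, 13823 bp from 2083046 to 2096868, held 4 and 3 regions, covering 57.2% and 42.4%. In the fifth, 12251 bp from 1278200 to 1290450, the 1 region of each replicate lay at different places, and no base was covered in both.

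**Figure D5:**
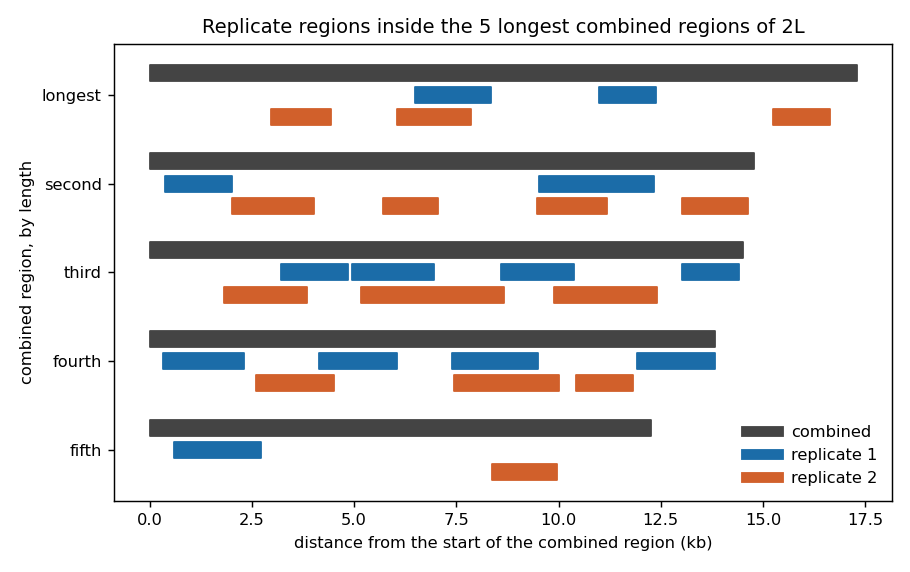
The 5 longest combined regions of 2L (rows, grey bars) with the regions of replicate 1 (blue) and replicate 2 (orange) inside them, by distance from the start of the combined region (x axis, kb). Each combined region holds 1 to 4 pieces of each replicate, and in the fifth the pieces do not meet.

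The stretch lay between 3L and 3R in H1 coverage. Replicate 1 covered 5.75% of 2L below 21 Mb, against 4.74% of 3L and 7.20% of 3R. In replicate 2 the values were 6.85%, against 6.02% and 8.42%, and for combined regions 33.8%, against 29.9% and 37.1%. The ratio of 2L to 3L was 1.18 ± 0.0538 and that of 2L to 3R was 0.806 ± 0.0111 (SD, n = 2). The right arm of the same chromosome, 2R, was closer: it had 5.85% covered in replicate 1, 6.76% in replicate 2 and 31.8% by combined regions, and the ratio of 2L to 2R was 0.998 ± 0.0216 (SD, n = 2). These other arms were taken whole, with the parts next to their centromeres. Median region length was at ratios of 1.01 ± 0.00450 to 3L and 0.991 ± 0.0144 to 3R. The number of regions differed more: 2L held 34.4 and 38.5 regions per Mb in replicates 1 and 2, against 28.3 and 35.0 on 3L and 41.8 and 47.4 on 3R.

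Agreement of the replicates was set beside that on the same arms. Both replicates covered 9.96% of their joint length on 2L below 21 Mb, against 9.41% on 3L and 12.3% on 3R, while 2R had 11.5%. These values were 3.09 (2L), 3.46 (3L), 3.05 (3R) and 3.57 (2R) times those for independent placement. The rank correlation between the replicates over windows of 100 kb was 0.68 on 2L, 0.65 on 3L and 0.74 on 3R, while 2R had 0.72. With 2 replicates an exact permutation test that swaps the arms within a replicate cannot give a two-sided p below 0.5, so no difference between arms was tested.

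Beyond the limit, towards the centromere, the replicates parted. They also did so in places below it, with 3.28% and 8.56% covered in the window from 14000001 to 15000000. The last combined region inside ended at 20996722 and the first outside began at 21005294. Replicate 1 covered 5.75% of the stretch below 21 Mb, against 2.85% of 2L beyond it (33 regions), while replicate 2 covered 6.85%, against 5.95% (66 regions). The ratio of coverage below the limit to that beyond it was 2.02 in replicate 1, 1.15 in replicate 2 and 1.57 for combined regions, a replicate mean of 1.59 ± 0.615 (SD, n = 2). That fall in coverage beyond the limit was thus large in 1 replicate and small in the other. Which genes lie under the regions was not analysed here, since the available gene table has Release 6 positions.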

How the data were processed

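H1 ChIP-seq regions of wild-type Oregon-R third-instar larvae were analysed as deposited, 1 list per ChIP sample and 1 combined list of the series. Per the file headers, positions are on FlyBase Release 5, and each row is a region of significant enrichment with a score; the deposited score has no unit named in the file. The submitters' processing notes list Bowtie 0.12.7 without saying what it did. How regions were called, at what threshold, whether with the input, from how many reads and how replicates were combined is not given in the sources used here.

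Regions on 2L ending below 21000000 were taken, with 21 Mb as denominator. Overlap meant at least 1 bp. Gaps ran from the end of a region to the start of the next, windows from position 1, and a region was counted in the window of its midpoint. Shares of regions carry 95% Wilson intervals, which cover counting error only. No test across samples was made. Interval measures were tested on simulated data. Named are the 5 highest scores and 5 longest combined regions with overlap in both replicates, and the 5 longest regions of each replicate. The 5 highest-scoring regions of each replicate were compared, with 2 of replicate 1 and 1 of replicate 2 named. The 5 densest windows of 100 kb, the window with no combined region and the 5 longest empty stretches are also named. The 5 highest combined scores, the longest blocks, the stretches empty in both replicates and the 1 Mb windows were named after their values were seen. The members and settings were chosen with earlier results of these data known. Gene content and sequence were planned and not analysed here, because no Release 5 annotation or genome was used. Alternatives were a score limit, a length limit, another end limit, joined regions, 50% overlap, other windows, midpoint distances, 2R added to the arms and leaving out each replicate. The tools were scipy 1.17.1, pandas 2.3.3, numpy 2.4.6 and matplotlib 3.10.9 under Python 3.11.15.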

Additional observations from a re-analysis of the deposited data

How the results depend on the processing

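Over 8 results and 39 alternatives that kept both replicates, 19 values stayed within the spread between replicates or the Wilson interval and 20 moved beyond it. The other 10 alternatives left out a replicate and give the remaining one's own value, which always lies within the spread of the 2. Ending the stretch at 20 Mb moved none of the 8. With scores at or above the list median, mean coverage was 3.15%, median length 1730 bp, median score 0.60, median gap 22839 bp, the ratio of 2L to 3L and 3R together 0.970, the share of replicate 1 regions with a partner 18.1% and that of combined regions in both replicates 5.29%. With regions of at least 2000 bp these values were 1.73%, 2271 bp, 0.61, 45192 bp, 0.903, 17.1% and 1.91%. The ratio then was 0.776 in replicate 1 and 1.03 in replicate 2, against 0.950 and 0.939 with all regions. Both limits leave fewer regions in each list, so the fall in coverage follows from the limits themselves. So do the higher median score under the score limit and the higher median length under the length limit. The cause of the other moves was not tested. Requiring 50% of both regions left 17.6% of replicate 1 regions with a partner and 1.77% of combined regions in both replicates. With regions under 1000 bp apart joined, 12.5% of combined regions were in both replicates. Leaving out combined regions shorter than any replicate region, an alternative chosen after seeing the data, gave 9.88%. Adding 2R to 3L and 3R gave a ratio of 0.959, against 0.945. Windows of 200 kb lowered the share of densest windows common to both replicates to 20.0% of 10 windows, and windows of 50 kb gave 50.0% of 42; the cause was not tested. Without replicate 1 or without replicate 2, coverage was from 5.75 to 6.85%, median length from 1541 to 1597 bp, median score from 0.53 to 0.57, median gap from 8313 to 12340 bp and the ratio to 3L and 3R from 0.939 to 0.950; overlap, support and shared windows need both replicates and have no such value. No paired analysis was possible because the inputs, the only other group with the same numbers, were left out. Depth limits any comparison of numbers between lists and is unknown.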

Other observations

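Positions in the combined table lay on a coarser grid than those of the replicates. All 3335 combined regions of 2L started at an even position and had an odd length in bp (100%), while 51.2% of the regions of replicate 1 (370) and 47.5% of those of replicate 2 (384) started at an even position.

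The 20 replicate regions of 2L that overlapped no combined region, 12 of replicate 1 and 8 of replicate 2, were short, between 1308 and 1572 bp. None of them could overlap the other replicate, since every base covered in both replicates lay inside the combined table. Their scores ran from 0.41 to 0.58 in replicate 1 and from 0.43 to 0.65 in replicate 2, on both sides of the medians of 0.53 and 0.57.

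Dense windows of the combined table did not run on for long. Of the 210 windows of 100 kb, 44 were covered to 50% or more and 11 to less than 10%. The longest unbroken runs of the first kind were 3 windows each, from 13900001 to 14200000 and from 17800001 to 18100000. The longest of the second kind was also 3 windows, from 7900001 to 8200000. Windows of at least 30% reached a run of 7, from 4100001 to 4800000. The windows and limits here were chosen after seeing the data.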
